A study of Homo sapiens with 6 samples.

Results

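The genes described are 9 that start coagulation or drive plasminogen activation at the cell surface: F3, TFPI, TFPI2, THBD, F2RL1, PLAU, PLAUR, PLAT and SERPINE2. They were taken by symbol from the 62700 gene IDs of the count table, and all 9 symbols matched 1 ID each. The RNA came from KYSE510, an established oesophageal squamous carcinoma line kept in medium with serum. Of the 6 libraries, 3 carry a control shRNA (shControl, labelled WT) and 3 an shRNA against the gene the labels call RNH1 (shRNH1, labelled RNH1 knockdown). The study built this knockdown as a model of induced R-loops, in which RNA pairs with 1 DNA strand and displaces the other. The samples are labelled as biological replicates, with no word on separate infections, so any p-value reflects the spread among these libraries, which may be partly technical. The labels name 1 shRNA against the target. The 9 genes were chosen with their levels in this same comparison in view, so their own differences are given as a description with no p-value.

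Tissue factor, the product of F3, is a membrane receptor that binds factor VII and starts clotting, and tumour cells often display it. TFPI blocks the tissue factor complex, thrombomodulin (THBD) turns thrombin towards protein C, and PAR2 (F2RL1) is a receptor that proteases switch on by cutting it. In the second branch, urokinase (PLAU) and tissue plasminogen activator (PLAT) convert plasminogen to plasmin. PLAUR holds urokinase on the cell surface, and the serpin family member SERPINE2, or protease nexin 1, inhibits thrombin and both activators.

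Library totals ran from 31394687 to 41103220 counts, and every shRNH1 library was shallower than every shControl library. RNASEH1, the ribonuclease that cuts RNA in RNA:DNA hybrids, had 1357, 1344 and 1015 counts in shControl and 251, 247 and 232 in shRNH1, a log2 fold change of -2.14 (SE 0.12, edgeR adjusted p = 1.61e-13). The ribonuclease inhibitor gene, whose approved symbol is RNH1, had a log2 fold change of -0.19 (SE 0.11, edgeR adjusted p = 0.221). Squamous and general epithelial markers were present, none of them at 0 in all libraries. Over 11 genes they summed to 1168 to 1470 CPM (counts scaled by TMM-normalised library size) in shControl and 1154 to 1196 in shRNH1. That sum is mostly SFN and KRT17 and hides changes in both directions by edgeR's adjusted p. Of the 11 genes, 5 rose (15.3% of all genes did). They were SOX2 (log2 fold change 2.68), DSC3 (1.11), PKP1 and the general epithelial genes EPCAM (0.44) and CDH1 (0.32). Another 3 fell (12.3% of all genes did), namely KRT5 (-1.33), KRT14 (-1.40) and SFN (-0.37). TP63 (-0.02), KRT17 (0.02) and DSG3 (-0.075) did not pass the threshold. PKP1 had 2, 1 and 0 counts in shControl and 10, 21 and 16 in shRNH1. It passed the filter on low counts through the shRNH1 libraries alone, so it had to differ in order to be tested. Hepatocyte markers, which would report the tissue that makes most clotting factors, summed to at most 0.313 CPM, with 4 of 6 at 0 throughout. Endothelial markers summed to 23.1 to 25.4 CPM in shControl and 23.7 to 25.4 in shRNH1. Of the 9, 1 was at 0, and 4, this gene included, had at most 10 counts in every library. Of 5 testable, PECAM1 (0.51) and ESAM (1.26) rose by edgeR's adjusted p (15.3% of all genes did). The other testable genes, CDH5 (-0.26), VWF (-0.42) and CLDN5 (-0.37), had negative values and did not pass. CDH5, at a mean of 15.5 CPM in shControl and 12.9 in shRNH1, made up most of the endothelial sum. Leukocyte markers summed to 0.823 to 1.11 CPM in shControl and 1.74 to 2.33 in shRNH1. None of the 7 was at 0 throughout, but 3 had at most 10 counts in every library. Of 2 testable, ITGAM rose by edgeR's adjusted p (log2 fold change 2.27, beside 15.3% of all genes that rose). It had 4, 7 and 7 counts in shControl and 24, 24 and 29 in shRNH1. Like PKP1, ITGAM passed the filter through the shRNH1 libraries alone. Fibroblast markers summed to 62.6 to 71.9 CPM in shControl and 110.6 to 133.4 in shRNH1, but this is mostly COL1A1. Of 5 genes 2 were testable. COL1A1 rose (log2 fold change 0.98, beside 15.3% of all genes that rose). PDGFRB fell (-0.91, edgeR adjusted p = 0.00103, beside 12.3% of all genes that fell). DCN was at 0 and COL3A1 had at most 3 counts. LUM, also untested, had 2, 0 and 0 counts in shControl and 16, 0 and 9 in shRNH1. The part of these markers in the results was not tested, and fewer cells of a type cannot be told apart from less RNA per cell.

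F3 was the member that differed most. Its level was 92.2, 97.03 and 87.3 CPM in the 3 shControl libraries and 15.8, 16.1 and 18.4 CPM in the 3 shRNH1 libraries. All shRNH1 values lay far below all shControl values, and the spread within each group was small. The means were 92.2 ± 4.88 and 16.8 ± 1.45 CPM (SD, n = 3 each), so shRNH1 kept 18.2% of the control mean (95% interval 15.8% to 20.99%). On the log2 scale the difference was -2.46 (SE 0.10), the 28th lowest of 19682 genes. F3 (ENSG00000117525) lies on GRCh38 chromosome 1 from 94529225 to 94541800 on the minus strand, and no other gene of GENCODE 29 overlaps it. It stayed between -2.53 and -2.41 when any 1 library was left out.

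**Figure D1:**
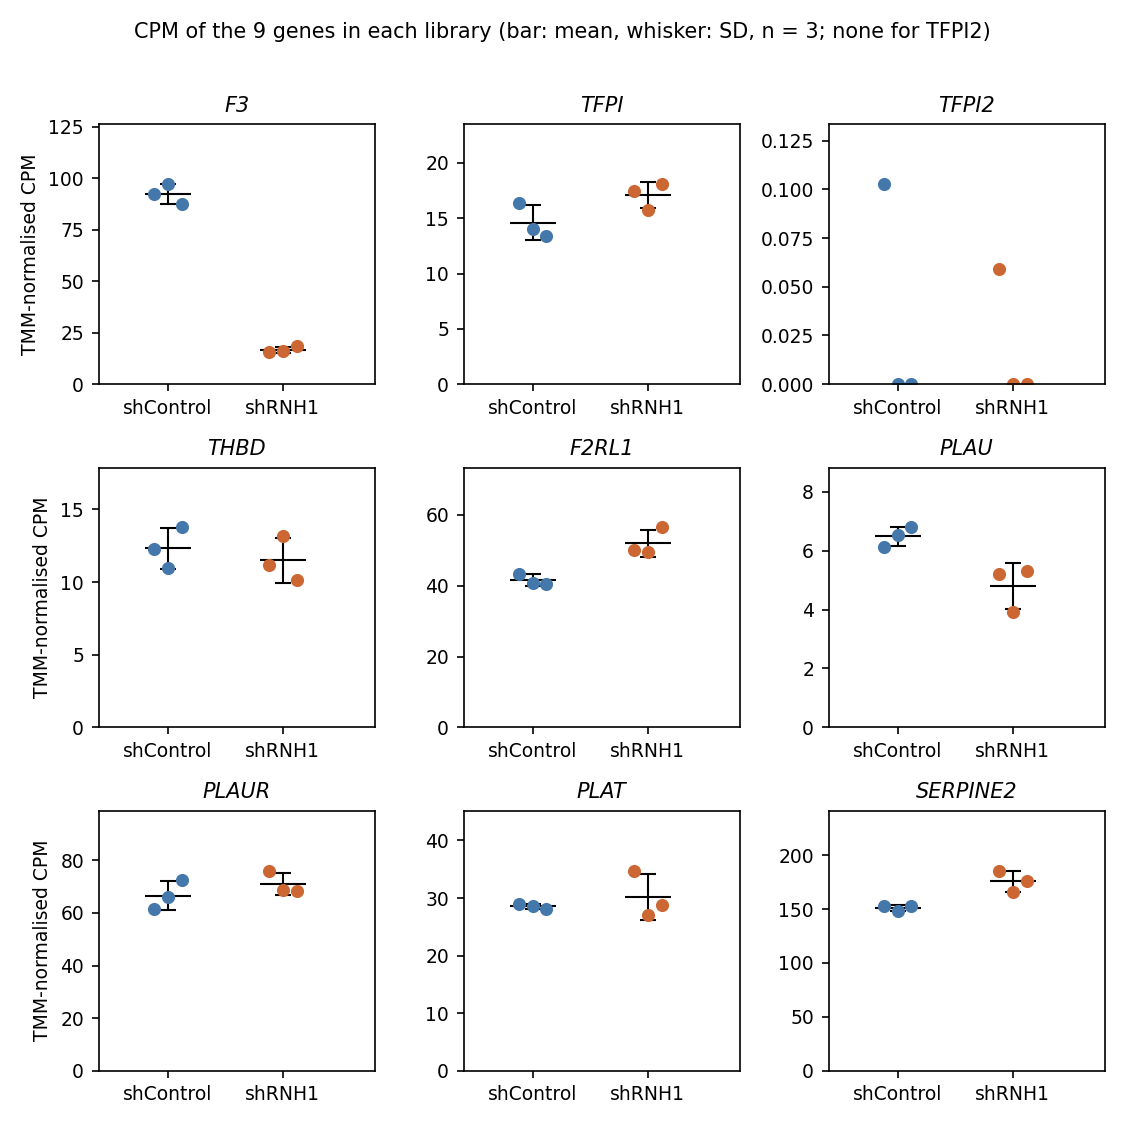
CPM normalised by TMM (vertical axes, linear, each from 0) of the 9 genes in each of the 3 shControl and 3 shRNH1 libraries (points), with the group mean and SD except for TFPI2. F3 drops from 87.3 or more to 18.4 or less, whereas most other genes keep to a narrow range and TFPI2 has a count above 0 in 1 library of each group.

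The sequences just upstream of 4 members are shown because their differences range from a large fall to a small rise. Each is the 250 bases before the RefSeq start (GRCh38.p14), 5′ to 3′ on the gene's strand. Capitals mark matches to motifs searched on both strands, and the matches shown do not overlap. The motifs were AP-1, spelled TGANTCA, the TEAD motif, spelled GGAATG, and the SP1 box, spelled GGGCGG and called GC box here. The others were the promoter element TATAAA, known as the TATA box, the E-box, spelled CACGTG, and an NF-kB motif. F3 is at chr1:94541760-94542009, minus strand. PLAU, at the second of its 2 RefSeq starts, is at chr10:73910882-73911131, plus strand. PLAUR is at chr19:43670170-43670419, minus strand. F2RL1 is at chr5:76818780-76819029, plus strand.
F3: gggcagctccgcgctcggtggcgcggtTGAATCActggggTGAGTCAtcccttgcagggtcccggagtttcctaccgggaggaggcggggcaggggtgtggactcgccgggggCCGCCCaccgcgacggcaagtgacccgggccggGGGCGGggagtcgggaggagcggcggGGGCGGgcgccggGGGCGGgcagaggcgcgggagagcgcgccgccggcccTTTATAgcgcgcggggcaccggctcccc
PLAU: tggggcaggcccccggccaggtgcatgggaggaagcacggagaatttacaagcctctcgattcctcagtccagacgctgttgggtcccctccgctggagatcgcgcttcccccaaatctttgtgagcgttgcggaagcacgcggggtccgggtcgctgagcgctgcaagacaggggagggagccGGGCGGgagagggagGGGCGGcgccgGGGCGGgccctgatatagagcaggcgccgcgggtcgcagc
PLAUR: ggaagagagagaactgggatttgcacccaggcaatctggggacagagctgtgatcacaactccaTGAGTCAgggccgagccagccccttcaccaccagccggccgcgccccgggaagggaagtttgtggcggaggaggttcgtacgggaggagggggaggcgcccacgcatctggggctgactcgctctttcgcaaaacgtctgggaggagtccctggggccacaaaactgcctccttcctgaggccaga
F2RL1: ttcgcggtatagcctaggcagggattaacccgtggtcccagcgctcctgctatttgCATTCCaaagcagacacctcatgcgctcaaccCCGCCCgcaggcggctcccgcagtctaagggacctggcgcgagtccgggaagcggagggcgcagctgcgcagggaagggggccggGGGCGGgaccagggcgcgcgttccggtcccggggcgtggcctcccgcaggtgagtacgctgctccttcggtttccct

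The F3 stretch held 2 AP-1 matches, TGAATCA at -223 to -217 and TGAGTCA at -210 to -204, counted back from the start. At least 1 such match was present in 6.57% of all 35116 promoter windows of that length, and at least 2 in 0.402%. It also held 4 GC boxes and a TATA box, read on the other strand as TTTATA, at -28 to -23. GC boxes occurred in 42.6% of all windows and TATA boxes in 10.7%. PLAUR had 1 AP-1 match, TGAGTCA at -186 to -180, and no GC box. PLAU, at the second start shown, had 3 GC boxes and no AP-1 match, whereas its first start had no match to any motif searched. F2RL1 had 2 GC boxes and 1 TEAD match, CATTCC at -194 to -189, a motif found in 11.9% of windows. AP-1 matches thus stand in front of F3, which had the lowest fold change, and of PLAUR, whose groups overlapped. Of the other members with a window, TFPI2 had 1 AP-1 match, and TFPI and both starts of SERPINE2 had none. E-boxes occurred in 6.35% of windows and matches to the NF-kB spelling in 5.07%. Among the members only SERPINE2, at its first listed start, had an E-box, and none matched this NF-kB spelling. Sites spelled otherwise were not searched for, so the lack of a match does not show that a promoter has no NF-kB site. A match is a run of letters and not a binding measurement.

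TFPI and THBD showed no fall like that of F3, and TFPI2 had too few counts for a comparison. TFPI (ENSG00000003436; chromosome 2, 187464230 to 187565760) measured 16.4, 14.01 and 13.4 CPM in shControl and 17.4, 15.8 and 18.1 in shRNH1. The groups overlapped, and the means of 14.6 ± 1.602 and 17.1 ± 1.198 CPM (SD, n = 3 each) gave a log2 difference of 0.23 (SE 0.11; 95% interval -0.006 to 0.46). TFPI2, a related Kunitz inhibitor (ENSG00000105825; chromosome 7, 93885396 to 93890991), was near the floor of detection, with 4, 0 and 0 counts in shControl and 2, 0 and 0 in shRNH1. It was the 1 member that did not pass the filter on low counts, and no fold is given for it. THBD (ENSG00000178726; chromosome 20, 23045633 to 23049741) measured 12.3, 10.96 and 13.8 CPM in shControl and 11.2, 13.2 and 10.1 in shRNH1, with overlapping groups. Its log2 difference was -0.10 (SE 0.13; 95% interval -0.36 to 0.16), and it turned to 0.02 when only library size was used for scaling.

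F2RL1 (ENSG00000164251; chromosome 5, 76818933 to 76835315), which encodes PAR2, was higher in shRNH1. It measured 43.4, 40.9 and 40.5 CPM in shControl and 50.01, 49.6 and 56.4 in shRNH1, so that the groups did not overlap. The means were 41.6 ± 1.59 and 51.99 ± 3.84 CPM (SD, n = 3 each), a 1.25-fold level (95% interval 1.09 to 1.43) and a log2 difference of 0.32 (SE 0.09). Its difference no longer passed the edgeR threshold without shControl replicate 2 (0.30) or without shRNH1 replicate 3 (0.26).

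The plasminogen activators and their receptor moved less than F3. Urokinase PLAU (ENSG00000122861; chromosome 10, 73909177 to 73917497) was lower in shRNH1, with 6.14, 6.53 and 6.79 CPM in shControl and 5.22, 3.90 and 5.30 in shRNH1. The groups did not overlap, shRNH1 replicate 2 being the lowest. The means were 6.49 ± 0.325 and 4.81 ± 0.787 CPM (SD, n = 3 each), or 74.1% of control (95% interval 59.5% to 92.3%), a log2 difference of -0.43 (SE 0.15). PLAU did not pass an adjusted p of 0.05 with library size alone (-0.32), by DESeq2 (-0.46), or when any library other than shRNH1 replicate 3 was left out, where its difference lay from -0.298 without shRNH1 replicate 2 to -0.495 without shRNH1 replicate 1. The antisense-strand gene C10orf55 shares 31.1% of the PLAU exon bases and had 9 to 15 counts in any library. No source used here states whether counting used strand, and reads of that stretch cannot be told apart.

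PLAT (ENSG00000104368) measured 29.03, 28.6 and 28.1 CPM in shControl and 34.7, 27.0 and 28.9 in shRNH1. The groups overlapped, and only shRNH1 replicate 1 stood above the rest. The log2 difference was 0.08 (SE 0.10; 95% interval -0.13 to 0.29), and it was -0.03 without that replicate. PLAUR (ENSG00000011422; chromosome 19, 43646095 to 43670547), the urokinase receptor, measured 61.4, 65.9 and 72.4 CPM in shControl and 76.1, 68.6 and 68.4 in shRNH1. Its groups overlapped too, at a log2 difference of 0.09 (SE 0.09; 95% interval -0.10 to 0.29). SERPINE2 (ENSG00000135919; chromosome 2, 223975112 to 224039319) had the highest CPM of the 9 genes. It measured 152.6, 148.0 and 152.4 CPM in shControl and 185.6, 165.9 and 176.1 in shRNH1, without overlap, although its difference did not pass the edgeR threshold. The means were 151.0 ± 2.57 and 175.9 ± 9.88 CPM (SD, n = 3 each) and the log2 difference was 0.22 (SE 0.09; 95% interval 0.04 to 0.40). With library size alone it was 0.33, with an offset for expression level 0.32 and without shRNH1 replicate 2 0.26, and it passed in all of these, as it did with a stricter filter at 0.22.

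Over the 8 members that could be fitted, 3 passed an adjusted p of 0.05, against 27.6% of all 19682 genes. F3 and PLAU were lower, beside 12.3% of all genes, and F2RL1 was higher, beside 15.3%. Groups did not overlap for 4 of the 8, against 40.0% of all genes. Because the members were chosen on this comparison, nothing is read from these counts.

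**Figure D2:**
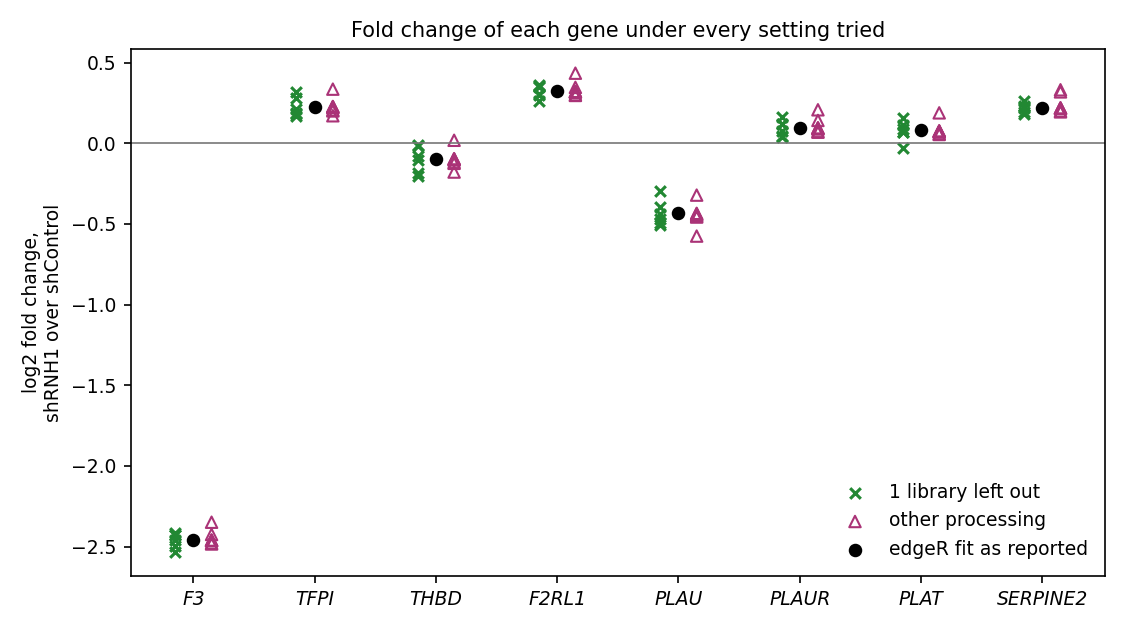
Log2 fold change of shRNH1 over shControl (vertical axis) for the 8 fitted genes in the edgeR fit as reported (black), with 1 library left out (crosses) and under other processing (triangles). F3 lies between -2.53 and -2.35 under every setting, while THBD and PLAT cross 0.

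Levels can be set side by side between genes only per length. On the scale of CPM per kilobase of the union of exons, F3 was the highest member in shControl at 32.1 ± 1.70 (SD, n = 3). SERPINE2 followed at 17.0 ± 0.288, then PLAUR at 14.9 ± 1.24 and F2RL1 at 14.1 ± 0.536, whose ranges overlapped each other. PLAT (4.32), THBD (2.999), PLAU (2.20) and TFPI (1.25) followed, each above the next in all 3 libraries. In shRNH1 the level of F3 was 5.83 ± 0.506, the fourth after SERPINE2 (19.8), F2RL1 (17.6) and PLAUR (15.9). There the ranges of SERPINE2 and F2RL1, of F2RL1 and PLAUR, and of PLAU and TFPI overlapped. Among 13366 protein-coding genes tested, the per-length level of F3 exceeded 88.3% in shControl and 58.4% in shRNH1. For comparison, F2RL1 exceeded 76.4% and 80.7%, and PLAUR 77.5% and 79.2%. The length used matters most for TFPI and SERPINE2, whose exon unions of 11714 and 8891 bases are long against median coding transcripts of 2384 and 2178 bases. It also matters for PLAUR (4457 against 1401 bases) and PLAT (6618 against 2273 bases). With the latter length, SERPINE2 led in both groups (69.3 and 80.7 CPM per kilobase), F3 was the third in shControl (44.3), where its range overlapped that of PLAUR (47.5), and the fifth in shRNH1 (8.05), where it overlapped that of TFPI (7.16).

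**Figure D3:**
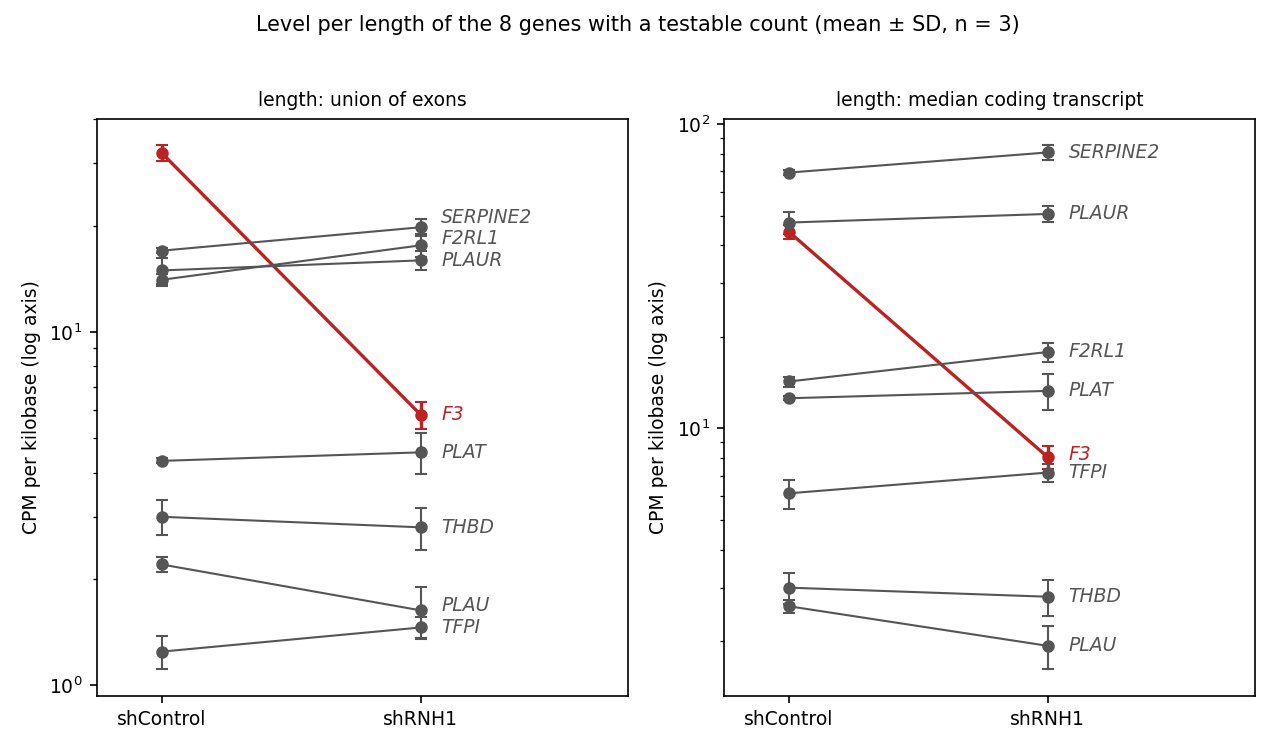
Mean level ± SD (n = 3) in CPM per kilobase (vertical, log axis) of 8 genes in shControl and shRNH1, by union of exons (left) and by median coding transcript (right). The F3 line crosses those of its neighbours, from 32.1 to 5.83 on the left, whereas the lines of the other genes are far less steep.

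Ratios within a library need no scaling between libraries, and they describe the balance of activators and inhibitors at the mRNA level. The ratio of F3 to TFPI, per kilobase of exon, was 22.9, 28.2 and 26.6 in shControl and 3.68, 4.17 and 4.16 in shRNH1. It was thus 6.46-fold lower in shRNH1, without overlap, and the log2 difference of -2.69 kept between -2.78 and -2.63 when any 1 library was left out. The ratio of F3 to THBD was 10.8, 12.7 and 9.07 in shControl and 2.01, 1.75 and 2.60 in shRNH1. PLAU against its receptor PLAUR was 0.151, 0.150 and 0.142 in shControl and 0.104, 0.0860 and 0.117 in shRNH1, again without overlap. PLAU against its inhibitor SERPINE2 went from 0.121, 0.133 and 0.134 to 0.0847, 0.0709 and 0.0908. Urokinase mRNA thus lay lower in shRNH1 against both its receptor and this inhibitor. PLAT against SERPINE2 overlapped between groups, at 0.256, 0.260 and 0.248 in shControl and 0.251, 0.219 and 0.220 in shRNH1. PLAU against PLAT was 0.474, 0.512 and 0.542 in shControl and 0.337, 0.324 and 0.412 in shRNH1, without overlap. The size of each ratio depends on the length used, here the union of exons, but its fold between groups does not. Per kilobase of median coding transcript, F3 and TFPI were at 44.3 and 6.12 CPM in shControl and at 8.05 and 7.16 in shRNH1. By that length F3 thus stood far less above TFPI, and their ranges overlapped in shRNH1. Ratios with SERPINE2 also change with the length. All these ratios rest on the comparison used to choose the members and carry no test. Ratios of mRNA say nothing of protein at the membrane or of enzyme activity.

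**Figure D4:**
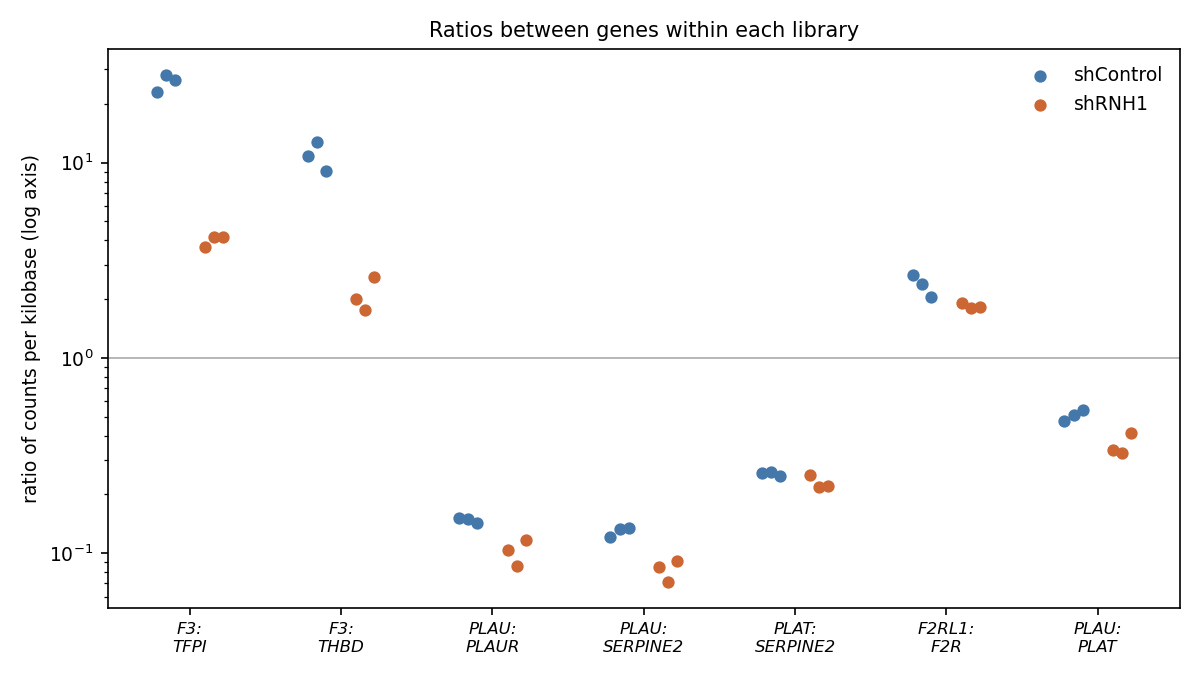
Ratio of counts per kilobase of the union of exons between pairs of genes (vertical, log axis) in each library. For each pair, shControl is at the left and shRNH1 at the right. The size of a ratio depends on the length used. F3 to TFPI falls from 22.9 to 28.2 down to 3.68 to 4.17, and PLAT to SERPINE2 overlaps between the groups.

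The other genes of the pathway were taken as 5 lists and tested in the same fit over all genes. These lists, like the members, were chosen with earlier results of these data known. Their counts and medians are therefore a description, and nothing is read from them about the lists as sets. The adjusted p-values of their genes are those of the fit and take no account of that choice. Among 15 further plasminogen system genes, 9 were testable, 4 rose and 1 fell (55.6% called, beside 27.6% of all genes), with a median log2 fold change of 0.27 beside 0.016 for all genes. LRP1, the endocytic receptor that clears protease and serpin complexes, rose from 77.1 ± 8.38 to 248.6 ± 35.9 CPM (SD, n = 3 each; log2 fold change 1.69, SE 0.11, edgeR adjusted p = 5.18e-12). Vitronectin VTN, a matrix and plasma protein that binds PLAUR, rose from 4.99 ± 0.565 to 11.4 ± 0.402 CPM (1.19, SE 0.13, edgeR adjusted p = 1.26e-07). MRC2, an endocytic collagen receptor that associates with the urokinase receptor, rose from 2.57 ± 0.568 to 6.04 ± 0.998 CPM (1.24, SE 0.19, edgeR adjusted p = 1.32e-05). A2M, a broad protease inhibitor of plasma, rose from 0.868 ± 0.188 to 2.76 ± 0.424 CPM (1.66, SE 0.26, edgeR adjusted p = 1.78e-05). The fall was in the plasminogen-binding annexin ANXA2 (-0.36), and with the offset for expression level 0 genes of this list fell. Plasminogen itself, PLG, had 0 counts in shControl and 2, 7 and 8 in shRNH1, too few to be tested.

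The next list holds thrombin receptors, surface or secreted serine proteases and their inhibitors. Of its 21 genes 13 were testable, 10 rose, 0 fell and 3 did not pass. The median log2 fold change was 1.19 beside 0.016 for all genes. KLK5 and KLK11 passed the filter on low counts through the shRNH1 libraries alone, so these 2 had to differ in order to be tested. Without them, a choice made after seeing the data, 8 of 11 rose and 0 fell, with a median of 0.97, beside 15.3% of all genes called higher. None was lower by an unadjusted p below 0.05 in edgeR (0), by limma-voom (0) or by DESeq2 (0), while DESeq2 called 11 higher. The kallikrein KLK10 rose from 0.848 ± 0.169 to 4.74 ± 0.882 CPM (SD, n = 3 each; log2 fold change 2.48, SE 0.23, edgeR adjusted p = 4.70e-09). Matriptase ST14, a membrane protease able to cut PAR2, rose from 127.3 ± 15.5 to 215.6 ± 15.4 CPM (0.76, SE 0.10, edgeR adjusted p = 1.53e-06). Its partner protease prostasin, PRSS8, rose from 1.19 ± 0.107 to 3.45 ± 0.720 CPM (1.54, SE 0.23, edgeR adjusted p = 1.02e-05), and the kallikrein inhibitor SPINK5 from 1.94 ± 0.125 to 4.54 ± 0.544 CPM (1.23, SE 0.19, edgeR adjusted p = 1.74e-05). The thrombin receptor F2R, SPINT2 (an inhibitor of matriptase), HPN, KLK5, KLK6 and KLK11 made up the other rises. KLK5, KLK6, KLK10 and KLK11 all lie on chromosome 19 between 50943303 and 51028039, and whether they rose separately was not tested. Like F2RL1, then, F2R was higher in shRNH1, at log2 fold changes of 0.32 and 0.66, and the ratio of F2RL1 to F2R went from 2.66, 2.38 and 2.04 to 1.92, 1.81 and 1.83.

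Among 20 clotting factors and vitamin K enzymes, 12 could not be tested, 8 of them at 0 in every library, fibrinogen genes included. Of the 8 testable genes 4 rose (15.3% of all genes did) and 0 fell, and 0 were lower by an unadjusted p below 0.05 in edgeR, by limma-voom or by DESeq2 (median 0.35 beside 0.016 for all genes). F12, the contact pathway factor, rose from 11.3 ± 0.729 to 19.1 ± 0.821 CPM (SD, n = 3 each; log2 fold change 0.75, SE 0.11, edgeR adjusted p = 7.16e-06). F10, the factor that the tissue factor complex activates, rose by 1.44 (SE 0.32, edgeR adjusted p = 9.87e-04), from 0.592 ± 0.161 to 1.62 ± 0.273 CPM. F8 (1.37) and the vitamin K reductase VKORC1 (0.64) also rose. F7, the ligand of tissue factor, had 4 to 10 counts in any library.

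Of 8 anticoagulant genes 5 were testable, and 1 of these 5 rose (15.3% of all genes did), the protein C cofactor PROS1 (0.58, SE 0.21, edgeR adjusted p = 0.0366), from 2.06 ± 0.310 to 3.08 ± 0.326 CPM (SD, n = 3 each). PROS1 missed the threshold by DESeq2 (0.56), with the offset for expression level (0.43), and without shControl replicate 2 (0.495), shControl replicate 3 (0.54), shRNH1 replicate 1 (0.61) or shRNH1 replicate 2 (0.496). The protein C receptor PROCR had a log2 fold change of 0.01 (SE 0.10), and 0 genes of this list fell by edgeR, by its unadjusted p below 0.05, by limma-voom or by DESeq2. Scramblases and flippases set how much phosphatidylserine, the lipid that tissue factor needs, faces outwards. Of these 8 genes, all testable, 1 rose (12.5%, beside 15.3% of all genes) and 0 fell, with 0 lower by an unadjusted p below 0.05, by limma-voom or by DESeq2. The rise was in the interferon-inducible PLSCR1, from 25.8 ± 1.02 to 36.7 ± 0.816 CPM (SD, n = 3 each; 0.51, SE 0.09, edgeR adjusted p = 1.77e-04), whereas the scramblase ANO6 had a log2 fold change of 0.02 (SE 0.10; 95% interval -0.18 to 0.21).

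**Figure D5:**
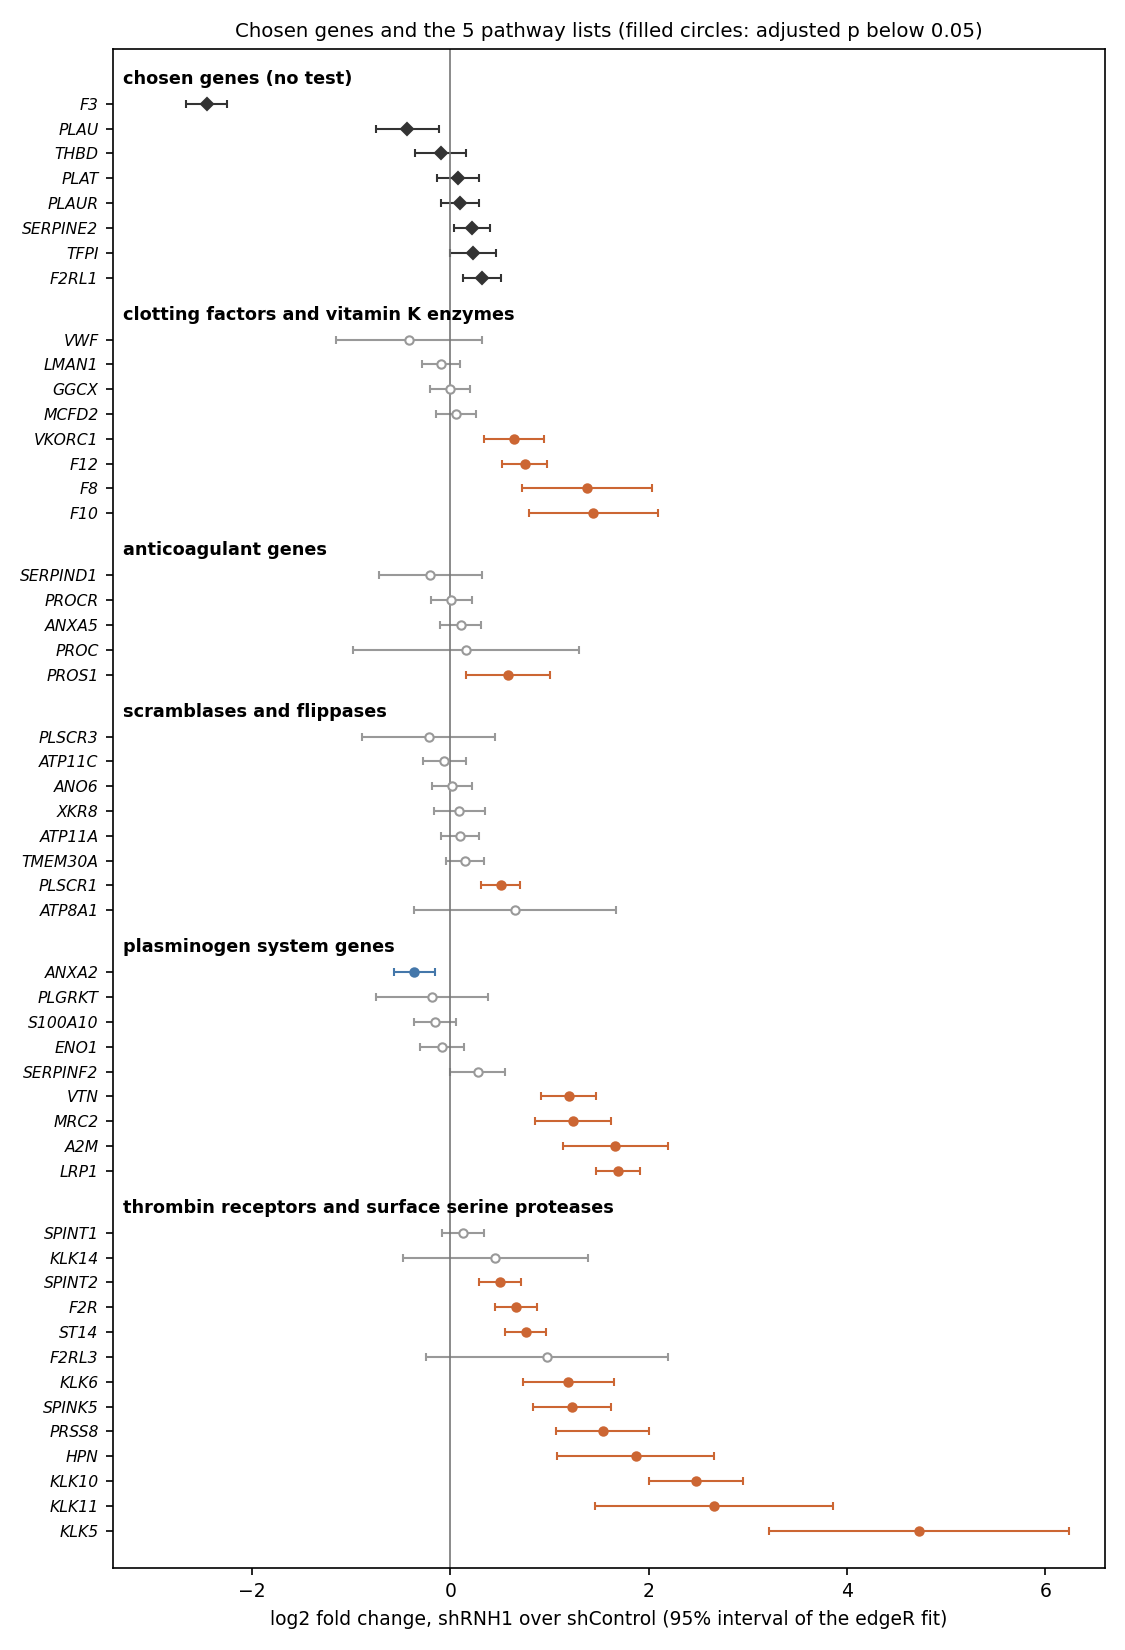
Log2 fold change of shRNH1 over shControl (horizontal) with the 95% interval of the edgeR fit for the 8 fitted members (diamonds, no test) and the testable genes of 5 pathway lists (circles, filled where the adjusted p is below 0.05). F3 at -2.46 lies farthest to the left, and 10 of 13 genes in the protease and receptor list are filled and to the right of 0.

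Position on the chromosome was looked at with the nearest tested gene on each side of 8 members, PLAT left out, a choice made after the values were seen. Genes that overlap a member, such as GNGT1 at TFPI2 (85 to 179 counts), were passed over. The gaps ran from 1585 to 1290283 bases. Of these 16 neighbours 2 rose and 4 fell, beside 15.3% and 12.3% of all genes. Beside F3, ABCD3, at 10559 bases the nearest, had a log2 fold change of 0.16 (SE 0.10, edgeR adjusted p = 0.218). On the other side, at 72014 bases, the low-level transcript SLC44A3-AS1 fell (-1.66, SE 0.35, edgeR adjusted p = 6.57e-04), from 1.46 to 0.463 CPM. The neighbour of F2RL1 at 83152 bases is F2R. Next to PLAU, the focal adhesion gene VCL fell (-0.82, SE 0.10, edgeR adjusted p = 2.14e-07) and CAMK2G had a log2 fold change of 0.05 (SE 0.09). The others called were CADM4 next to PLAUR (0.80), GNG11 next to TFPI2 (-0.79) and CUL3 on the far side of SERPINE2 (-0.32).

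The genes whose profiles lay nearest to F3 over the 6 libraries were THBS1, NNMT and SPARC. Likeness was the root mean square difference of log2 CPM, each gene centred on its own mean, among 10962 other genes whose mean log2 CPM reached 2. These differences were 0.104, 0.136 and 0.143. THBS1, thrombospondin, went from 166.6 to 27.3 CPM, and SPARC, a matrix glycoprotein, from 244.4 to 41.7 CPM. For F2RL1, the member with the highest log2 difference, SLC35F5 (0.024), TBL1XR1 (0.024) and PLEKHA1 (0.026) were nearest. Because the 6 libraries form 2 groups, a gene with a difference of like size scores as near.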

How the data were processed

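The authors deposited raw counts per Ensembl gene ID, whole numbers that are not normalised, for 6 libraries of poly(A)-selected RNA. The submitters' processing notes list the tools HISAT2, StringTie and DESeq2 and the build GRCh38, without versions; no source used here gives the counter, its strand setting or the annotation. Symbols matched all 62700 IDs; positions and lengths came from GENCODE 29, which holds 58207 of them. Promoter windows came from RefSeq (GRCh38.p14) and were used for 7 members.

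The 3 shRNH1 libraries were compared with the 3 shControl libraries by edgeR 4.0.16 in R 4.3.3 (quasi-likelihood fit, TMM, filterByExpr by group, no covariate), with Benjamini-Hochberg adjustment over 19682 genes and a threshold of 0.05. SE came from the F statistic, and intervals are 95% intervals of that fit. The script was tested on simulated data. No library was a duplicate of another: chi-square per gene within groups was 6.61 to 20.98. Alternatives were DESeq2 1.42.0, its size factors in edgeR, scaling by library size alone, limma-voom (limma 3.58.1), no filter, a filter at CPM 1 or more in 3 libraries, a replicate block, a spline offset for expression level (MASS 7.3.60.0.1, 5 degrees of freedom) each library left out and, added after seeing the data, 1 list without the 2 genes that reached the filter in no shControl library.

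The members and lists were chosen with earlier results of these data known. The text names all members, RNASEH1 and RNH1, up to 4 genes per list with the smallest adjusted p, and the 3 nearest profiles to the lowest and highest member; other names were added after values were seen. 1 gene of the plasminogen list is not reported here, and that list's counts and median leave it out.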

Additional observations from a re-analysis of the deposited data

How the results depend on the processing

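F3 lay between -2.53 and -2.35 under the alternatives run, a description only, since it was chosen on this comparison. With library size alone the median of all genes shifted by 0.111 on the log2 scale, 4065 genes were higher and 1433 lower (3006 and 2418 with TMM), THBD turned to 0.019, TFPI passed (0.34), and 2 scramblase and flippase genes were called in place of 1. Without shRNH1 replicate 1, PLAT turned to -0.031, and its values with 1 library left out ran from there to 0.158. Leaving out 1 library at a time gave 1 to 3 members called, the lowest without shControl replicate 2, and 0 to 1 anticoagulant genes. No anticoagulant gene was called by DESeq2 (0) or with the offset for expression level (0), and the cause was not tested. Replicates with the same number deviated with correlations of 0.048, 0.033 and -0.146, so the numbers were not taken as pairs; with a replicate block, 5094 genes were called against 5424, and the same 3 members. Genes under about 10 counts per library, such as TFPI2, PLG and F7, cannot be compared at this depth.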

Other observations

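Within groups, F3 varied about as much as genes of its level. Its pooled within-group SD of log2 CPM was 0.100, and the median of 965 genes within 0.25 of its mean log2 CPM was 0.103. SERPINE2 had an SD of 0.060 against a median of 0.102, at percentile 9.4 of 555 genes of its level, and THBD had 0.171 against 0.134, at percentile 71.6.

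The promoter window of F3 is rich in G and C. Its 250 upstream bases held 78.0% G or C and 34 CpG, above 94.3% and 93.2% of all windows, whose medians were 58.0% and 11. PLAU had 68.8% at its second start and 46.8% at its first, and TFPI 38.4%. GC skew, the excess of G over C as a share of both in the 300 bases around the start, was highest at the first start of SERPINE2 (0.247) and was 0.023 at its second. It was 0.129 for F3, -0.233 and 0.124 for the first and second start of PLAU, 0.094 for PLAUR, 0.043 for F2RL1, -0.034 for TFPI and -0.092 for TFPI2, with a median of 0.012 over all windows. No relation between composition and level was tested.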
